A study of Mus musculus with 6 samples.

Results

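The genes described here are the BCL2 family members Bcl2, Bcl2l1, Bcl2l2 and Mcl1, which protect cells, the pore-forming effectors Bax and Bak1, and the BH3-only proteins Bid, Bcl2l11, Pmaip1 and Bbc3, which promote death. They were followed in long-term haematopoietic stem cells with and without c-myc and N-myc. Members were chosen by name, with earlier results of these data known. Every probe set that an annotation table of the array pairs with 1 gene symbol, that of a member, was kept. This gave 31 of 45037 probe sets, for 9 of the 10 members. Bax was not analysed here, since no probe set in that table carries its symbol as the only one. Expression was measured in 6 arrays of LT-HSCs, which had been sorted from bone marrow by the Lin-Sca1+CD150+CD48- phenotype. The mice were 8 weeks old and of mixed background. The 3 dKO arrays came from MxCre c-myc f2 N-myc f2 mice and the 3 control arrays from c-myc f2 N-myc f2 mice without the recombinase, where f2 marks floxed alleles. Both groups were given 2 daily injections of pI-pC, the last of them 3 days before the marrow was taken. Each array held 1 pool, of 3 dKO mice or of 2 control mice, so no value belongs to a single animal. The Cre gene is driven by the Mx promoter, which responds to interferon in many cell types and not in stem cells alone. A label of control replicate 2 reads M-Myc where the others read N-myc.

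BCL2 family proteins decide at the mitochondrial outer membrane whether a cell survives. Once active, Bax and Bak1 form pores that let cytochrome c out, which starts the caspase cascade. The protective members hold the effectors and the BH3-only proteins, and BH3-only proteins are made or activated under stress and block the protective members or switch on the effectors. In the blood system Mcl1 is needed for stem cells to survive, Bcl2 and Bcl2l1 (Bcl-xL) protect mature lineages such as lymphocytes and, for Bcl2l1, platelets and red cell precursors, and Bcl2l11 (Bim) removes cytokine-deprived cells. Myc proteins are known both to drive growth and to sensitise cells to death through this family.

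All values are log2 expression values after RMA, the authors' normalization, so 1 unit is a factor of 2. Differences are dKO minus control and are tested with limma, with p-values adjusted by Benjamini and Hochberg over all 45037 probe sets and called at an adjusted p under 0.05. A probe set is never set against another by its level, since probes bind with unequal strength. Signals of 2.13 to 3.92, as read by 3 negative controls, cannot be told from background. In the dKO arrays the deleted genes were lower: Myc fell by 2.93 ± 0.20 (SE, limma adjusted p = 0.00137), and of 3 Mycn probe sets 1417155_at fell by 7.35, to the level of the negative controls, and 1425922_a_at fell by 1.61, while 1425923_at differed by -0.08 (adjusted p = 0.858). For Myc and both of these Mycn probe sets the exact two-sided permutation p was 0.1, the smallest that 3 arrays against 3 allow. Arrays correlated at 0.974 to 0.981 within and 0.956 to 0.969 between groups. The 3' control probe set of Gapdh exceeded the 5' one by 2.12 to 2.36 on control arrays and by 2.39 to 2.47 on dKO arrays. These ranges did not overlap. RNA integrity and the 2 rounds of amplification cannot be told apart in this gap, and its part in the results was not tested. Stem cell markers were well above background in both groups, for example Slamf1, with means of 9.16 and 9.24 and Procr with 10.63 and 10.26. Slamf1 encodes CD150, by which the cells were sorted, so its signal is no separate check of the cells. Of 8 such markers, Kit (-0.87) and Hlf (-1.66) fell and Gata2 (0.63) rose.

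The family moved in part, and where it moved it was higher in dKO cells. The protective genes Bcl2 and Bcl2l1, the effector Bak1 and the BH3-only gene Pmaip1 rose. Mcl1, Bcl2l2, Bid, Bcl2l11 and Bbc3 had no probe set past the threshold. Of the 31 probe sets, 10 were higher, 0 were lower and 21 did not pass. The share called was 32.3%, against 6.99% of all probe sets in either direction and 3.57% of all probe sets for higher calls. Since the members were chosen with earlier results of these data known, the shares in this paragraph describe the list and are no test of it. At an unadjusted p under 0.05, 8 protective, 2 effector and 3 BH3-only probe sets were higher and 1 BH3-only probe set was lower, where 21.7% of all probe sets passed in either direction. Bright probe sets are called more often, at 11.8% of those above the median level, and 9 of the 22 member probe sets above that level were called, against 1 of the 9 below it. With 1 probe set per gene, the brightest on average, 4 of 9 genes were higher and 0 lower, against 8.05% of all genes in either direction. By class these were 2 of 4 protective genes, the 1 effector measured and 1 of 4 BH3-only genes, with median differences of 0.62, 0.71 and 0.37. The median over the 31 probe sets was 0.09, against -0.01 over all probe sets. In 14 of 31 the groups stood apart, with no dKO value among the control values, as in 27.4% of all probe sets. With 1 array left out, fewer member probe sets were called: 7 without control replicate 1, 2 or 3, 5 without dKO replicate 1 or dKO replicate 2, and 6 without dKO replicate 3. Calls fell over the whole array as well, from 3146 of 45037 probe sets to between 1338 and 1674. The member genes called with 1 array left out numbered 3 without control replicate 1 or dKO replicate 3 and 2 without any other array. RMA sets the arrays on a common scale and RNA came from sorted pools. A larger or smaller share of cells of a type therefore cannot be told apart from more or less RNA per cell.

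**Figure D1:**
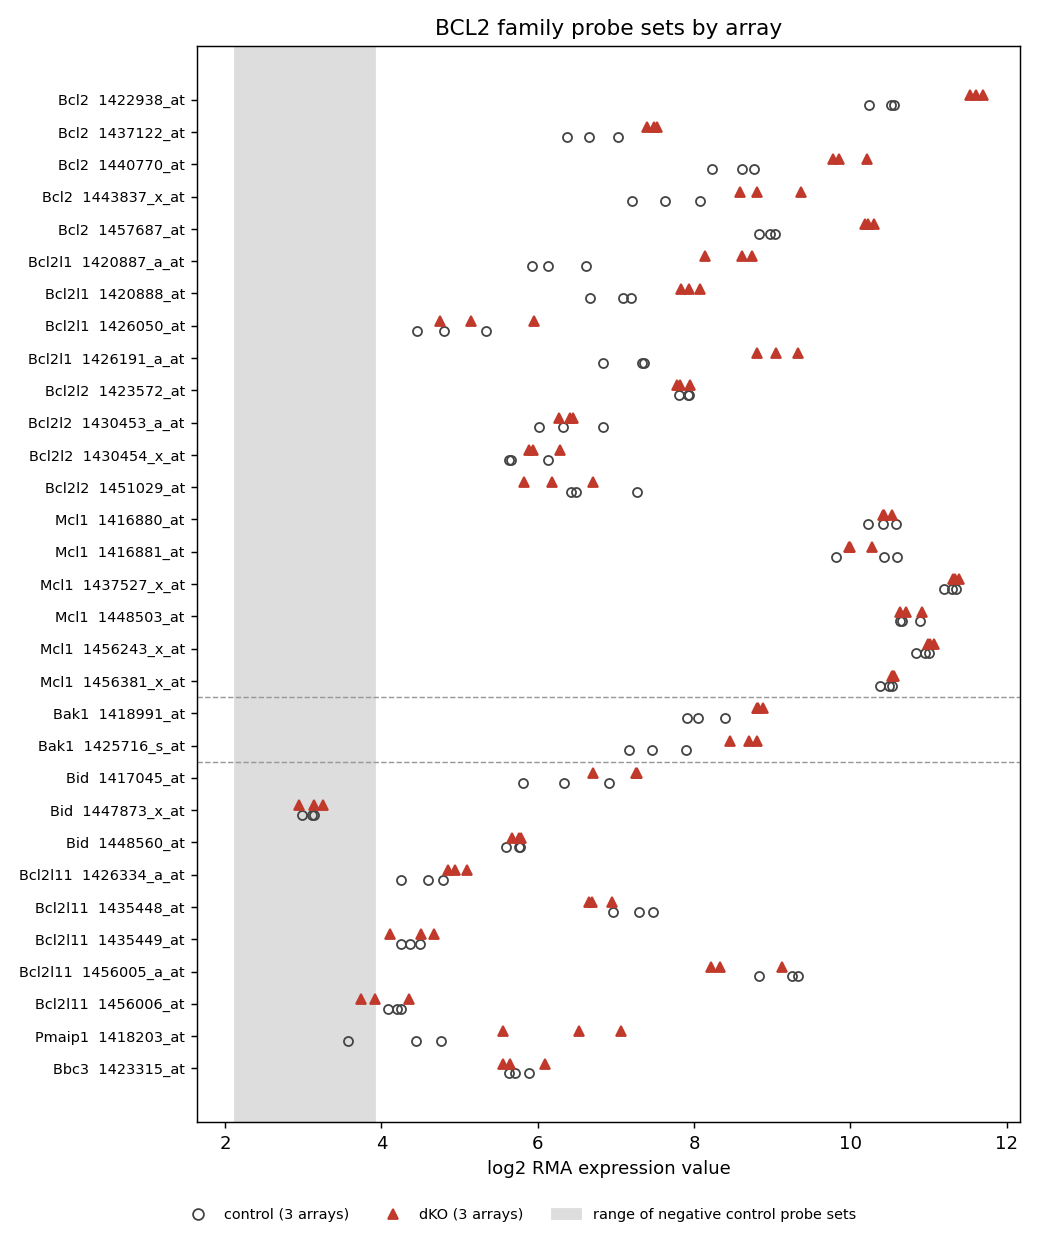
Log2 expression value (horizontal axis) of each member probe set, with 3 control arrays as open circles and 3 dKO arrays as red triangles; dashed lines part protective, effector and BH3-only genes, and the grey band spans the negative controls, 2.13 to 3.92. The dKO values of all 5 Bcl2 and both Bak1 probe sets lie above their control values, while those of Mcl1 overlap their control values on 5 of 6 probe sets.

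To show the letters a Myc protein could meet beside these genes, the 250 bases before the annotated start were searched for CACGTG, the E-box that Myc and its partner Max prefer, and for the wider form CANNTG, which includes it. Both motifs read the same on either strand. The windows are from the RefSeq promoter table, build GRCm38.p6, in which 9 of the 10 members had 14 windows in all; Pmaip1 had none. The windows of Bcl2 (chr1:106714291-106714540, minus strand), Bcl2l1 (chr2:152831729-152831978, minus strand, the outermost of 3 starts) and Bak1 (chr17:27028628-27028877, minus strand) are shown because these genes rose, and that of Mcl1 (chr3:95658471-95658720, plus strand) because it did not pass. They run 5′ to 3′ towards the start, with each CANNTG in capitals.
Bcl2: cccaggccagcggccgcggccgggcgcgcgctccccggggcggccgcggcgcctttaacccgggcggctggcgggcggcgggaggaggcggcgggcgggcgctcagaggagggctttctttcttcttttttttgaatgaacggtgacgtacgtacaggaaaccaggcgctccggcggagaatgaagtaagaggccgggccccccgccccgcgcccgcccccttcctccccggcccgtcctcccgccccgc
Bcl2l1: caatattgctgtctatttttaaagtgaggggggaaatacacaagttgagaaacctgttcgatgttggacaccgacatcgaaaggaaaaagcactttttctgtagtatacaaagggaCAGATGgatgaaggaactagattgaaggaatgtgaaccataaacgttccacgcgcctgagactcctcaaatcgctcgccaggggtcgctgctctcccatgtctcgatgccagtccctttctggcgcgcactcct
Bak1: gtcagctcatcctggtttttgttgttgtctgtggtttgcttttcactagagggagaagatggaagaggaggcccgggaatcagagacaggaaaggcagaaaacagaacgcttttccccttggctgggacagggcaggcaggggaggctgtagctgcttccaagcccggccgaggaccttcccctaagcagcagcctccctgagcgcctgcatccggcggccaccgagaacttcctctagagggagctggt
Mcl1: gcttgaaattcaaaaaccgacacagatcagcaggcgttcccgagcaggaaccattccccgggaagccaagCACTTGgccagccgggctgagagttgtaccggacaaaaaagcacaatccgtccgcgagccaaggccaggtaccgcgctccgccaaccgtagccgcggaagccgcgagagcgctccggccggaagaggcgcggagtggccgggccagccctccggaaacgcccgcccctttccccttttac
None of these 4 windows holds CACGTG. Among the 14 windows, 2 hold it, that of Bax and 1 of 3 of Bbc3, and it is found in 6.02% of the 32851 windows of the table. CANNTG is in the Bcl2l1 and Mcl1 windows printed and in 7 of 14 member windows, against 66.2% of all. The Bcl2 window is rich in G and C, at 74.8%, against a median of 52.4% over all windows. A match is no binding site, and no match says only that these letters are not in this stretch.

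Bcl2, the founding protective member, rose on 4 of 5 probe sets, by 1.17 to 1.41, or 2.26- to 2.66-fold. The brightest, 1422938_at, read 10.52, 10.24 and 10.56 in control and 11.70, 11.53 and 11.61 in dKO arrays, a difference of 1.17 ± 0.14 (SE, limma adjusted p = 0.00675). Every dKO array was higher than every control array, and the SD over the 3 arrays was 0.18 in control and 0.08 in dKO. Probe set 1457687_at gave 8.84, 9.04 and 8.97 in control and 10.30, 10.19 and 10.22 in dKO arrays (1.29 ± 0.13 SE, limma adjusted p = 0.00383). Values of 1440770_at went from 8.77, 8.61 and 8.23 to 10.22, 9.85 and 9.78 (1.41 ± 0.20 SE, limma adjusted p = 0.00969). These 3 probe sets kept their call in all 12 alternatives. The groups stood apart on the other 2 as well, with wider spread. For 1443837_x_at, whose suffix marks probes that can match other transcripts, control arrays read 8.08, 7.63 and 7.20 and dKO arrays 9.37, 8.80 and 8.59 (1.28 ± 0.28 SE, limma adjusted p = 0.0410). Its call was lost without control replicate 2 (adjusted p = 0.109), control replicate 3 (0.102), dKO replicate 1 (0.108), dKO replicate 2 (0.0985) or dKO replicate 3 (0.0641). Just outside the threshold was 1437122_at, at 6.66, 6.38 and 7.03 in control and 7.49, 7.52 and 7.39 in dKO arrays (0.78 ± 0.19 SE, adjusted p = 0.0525), which passed in 4 of 12 alternatives: without control replicate 3 (0.0376), after median centring (0.0407), with the level filter (0.0262) and with array weights (0.0373). The 5 Bcl2 differences spanned 0.63, close to the median span of 0.64 over 463 genes with 5 probe sets.

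Bcl2l1, which encodes Bcl-xL and by splicing also a shorter form that promotes death, rose on 3 of 4 probe sets. Its largest change was on 1420887_a_at, which read 5.93, 6.62 and 6.14 in control and 8.61, 8.74 and 8.14 in dKO arrays, a 4.82-fold difference (log2 2.27 ± 0.24 SE, limma adjusted p = 0.00419). The brightest probe set, 1426191_a_at, went from 7.36, 7.34 and 6.84 to 9.33, 8.81 and 9.04, a 3.68-fold difference (1.88 ± 0.21 SE, limma adjusted p = 0.00506). The lowest dKO value of each lay over 1 unit above the highest control value, and both kept their call in all 12 alternatives. A smaller change was read by 1420888_at, from 7.09, 7.19 and 6.67 to 7.93, 7.84 and 8.08 (0.97 ± 0.18 SE, 1.95-fold, limma adjusted p = 0.0223). Its call was lost without control replicate 1 (adjusted p = 0.0535), dKO replicate 1 (0.0716), dKO replicate 2 (0.0584) or dKO replicate 3 (0.0747). Probe set 1426050_at was dim and overlapped, at 4.45, 4.81 and 5.34 in control and 4.75, 5.15 and 5.95 in dKO arrays (0.42 ± 0.35 SE, adjusted p = 0.562). The 4 Bcl2l1 differences thus spanned 1.85, where the median span over 1093 genes with 4 probe sets was 0.53. The files do not place the probe sets on the long or the short form, so the forms cannot be told apart. Markers of megakaryocytes were split: of 9 measured, Pf4, Ppbp, Itga2b and Itgb3 rose, Vwf fell, and Gp6 was at background in both groups. Treml1 differed by -0.95 (limma adjusted p = 0.0878), with the groups apart, Gp1bb by -0.23 and Gp9 by 0.20. The median over the 9 was 0.20. Summed and put on the log2 scale the 9 markers reached 12.03 to 12.24 on control arrays and 13.14 to 13.76 on dKO arrays, and the sums did not overlap. On dKO arrays the sums rest mostly on Pf4, Ppbp and Itgb3, with means of 12.16, 11.49 and 11.02. Of 7 mast cell and basophil markers Fcer1a rose (1.93 ± 0.42 SE), and their sums were 7.60 to 7.99 on control and 8.29 to 9.11 on dKO arrays. C1qb and Fcgr1 rose among 10 monocyte and macrophage markers, by 1.79 and 0.91, with sums of 10.78 to 11.13 against 10.76 to 11.04. Most of these sums is Lyz2, with means of 10.71 in control and 10.53 in dKO arrays. On other probe sets Fcgr1 differed by -0.12, and C1qb by 2.47 and, at background, by 0.00. Klf1 fell among 5 erythroid markers (-1.64 ± 0.26 SE), with sums of 8.55 to 8.85 against 7.49 to 8.16. No B cell (7) or granulocyte (11) marker passed. The part of these markers in the rises of Bcl2, Bcl2l1, Bak1 and Pmaip1 was not tested.

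Mcl1, a short-lived protective protein on which stem cells depend, did not pass on any of its 6 probe sets, which differed by -0.19 to 0.09. The brightest, 1437527_x_at, read 11.19, 11.31 and 11.35 in control and 11.39, 11.31 and 11.34 in dKO arrays (0.07 ± 0.12 SE, adjusted p = 0.823). Its 95% interval ran from -0.23 to 0.36, that is, short of a 2-fold change either way. The intervals of 5 of the 6 lay between -0.32 and 0.39, and the widest, that of 1416881_at, ran from -0.72 to 0.34. In 1416881_at the control arrays read 10.42, 9.81 and 10.59 and the dKO arrays 9.99, 9.99 and 10.27 (-0.19 ± 0.22 SE, adjusted p = 0.695). On 1456381_x_at all dKO values, at 10.55, 10.53 and 10.56, lay above the control values of 10.37, 10.50 and 10.53, but the difference was 0.08 ± 0.12 (SE, adjusted p = 0.784). The 6 differences spanned 0.28, narrower than the median span of 0.70 over 244 genes with 6 probe sets. Of these probe sets 3 have the suffix x and can match other transcripts, and the other 3 gave 0.05, -0.19 and 0.03.

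Bcl2l2, or Bcl-w, also passed nowhere. Its brightest probe set, 1423572_at, held 7.93, 7.93 and 7.81 in control and 7.82, 7.95 and 7.78 in dKO arrays (-0.04 ± 0.13 SE, 95% interval -0.34 to 0.26, adjusted p = 0.910). The other 3 differed by -0.01, 0.23 and -0.50, with adjusted p of 0.411 or more. Control and dKO values overlapped on all 4.

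**Figure D2:**
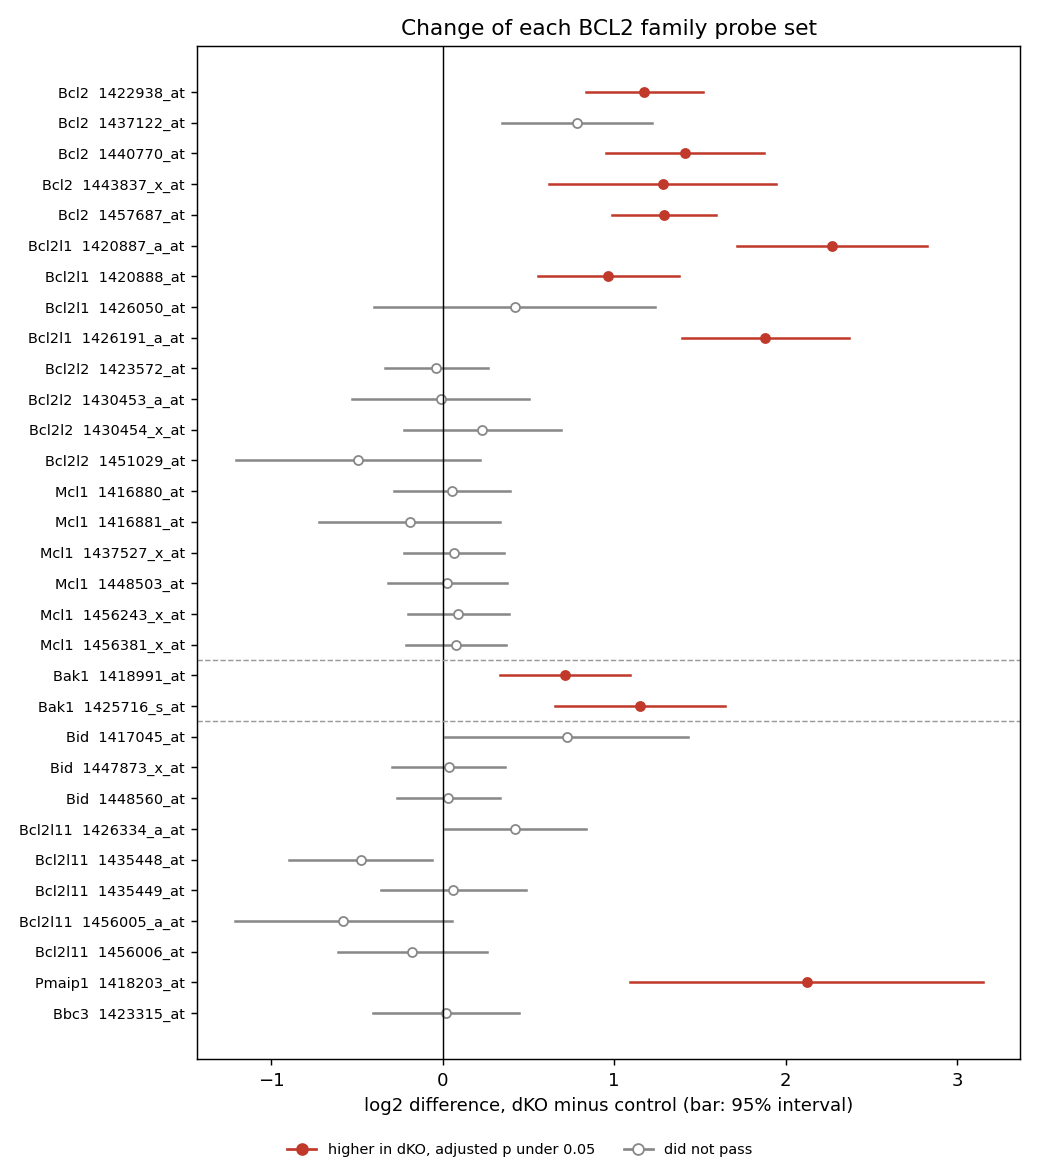
Log2 difference, dKO minus control (horizontal axis), of each member probe set with its 95% interval from limma; filled red points passed an adjusted p of 0.05 and open grey points did not. All 10 called probe sets lie to the right of 0, with Bcl2l1 1420887_a_at at 2.27 and Pmaip1 at 2.12 farthest out, and the intervals of Mcl1 lie around 0.

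Bak1, the pore-forming effector that sits in the mitochondrial membrane and is held there by Mcl1 and Bcl-xL, rose on both of its probe sets. In 1418991_at the control arrays read 8.40, 8.05 and 7.91 and the dKO arrays 8.89, 8.80 and 8.82, a 1.64-fold difference (log2 0.71 ± 0.16 SE, limma adjusted p = 0.0446). In 1425716_s_at, whose suffix marks probes shared by several transcripts, values went from 7.46, 7.89 and 7.17 to 8.81, 8.70 and 8.46, or 2.22-fold (1.15 ± 0.21 SE, limma adjusted p = 0.0232). The groups did not overlap on either, and the dKO arrays were closer to each other than the control arrays (SD 0.04 against 0.25 and 0.18 against 0.37). These calls lay near the threshold. That of 1418991_at was lost without control replicate 2 (adjusted p = 0.125), control replicate 3 (0.113) or dKO replicate 1 (0.127), 2 (0.111) or 3 (0.112), and after quantile normalization (0.0524). That of 1425716_s_at was lost without control replicate 1 (0.0684), control replicate 3 (0.0588) or dKO replicate 1 (0.0820), 2 (0.0777) or 3 (0.0507). With the mean of both probe sets as the value of the gene, a separate limma fit gave an adjusted p of 0.00842. That fit was adjusted over genes, so its value is not on a par with those of the probe sets.

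Pmaip1, or Noxa, a BH3-only protein that binds Mcl1 and is known as a target of p53 and of interferon signalling, was the BH3-only gene that rose. Its single probe set, 1418203_at, read 4.44, 4.76 and 3.58 in control and 7.06, 6.53 and 5.56 in dKO arrays, a 4.35-fold difference (log2 2.12 ± 0.44 SE, 95% interval 1.09 to 3.15, limma adjusted p = 0.0329). The groups did not overlap, but both were wide, with SDs of 0.61 and 0.76, and control replicate 3 lay within the range of the negative controls, so the control level is uncertain. The call was lost without control replicate 1 (adjusted p = 0.0761), control replicate 2 (0.0584), control replicate 3 (0.0860), dKO replicate 1 (0.0915) or dKO replicate 2 (0.102), with differences of 1.78 to 2.37, and was kept without dKO replicate 3 (0.0293).

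Bcl2l11, or Bim, which binds every protective member, did not pass on any of 5 probe sets, and these did not point one way. Its brightest, 1456005_a_at, read 9.33, 9.25 and 8.83 in control and 9.12, 8.33 and 8.21 in dKO arrays (-0.58 ± 0.27 SE, 95% interval -1.21 to 0.05, adjusted p = 0.271). In 1435448_at all dKO arrays, at 6.70, 6.65 and 6.95, were below the control arrays, at 7.48, 6.96 and 7.29 (-0.48 ± 0.18 SE, adjusted p = 0.172). The reverse held in the dimmer 1426334_a_at, at 4.25, 4.60 and 4.78 in control and 5.10, 4.95 and 4.85 in dKO arrays (0.42 ± 0.18 SE, adjusted p = 0.219). The remaining pair, near 4 in both groups, differed by 0.06 and -0.18. With the mean over the 5 probe sets, in the separate limma fit adjusted over genes, the adjusted p was 0.578.

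Bid, which caspase-8 and granzyme B cut into an active form, did not pass either. In 1417045_at the control arrays read 5.81, 6.91 and 6.34 and the dKO arrays 7.27, 7.25 and 6.70 (0.72 ± 0.30 SE, 95% interval 0.02 to 1.43, adjusted p = 0.221), so dKO replicate 3 was below control replicate 2. In 1448560_at the difference was 0.03 ± 0.13 (SE), and 1447873_x_at lay within the range of the negative controls on all 6 arrays and so does not measure the gene. Bbc3, or Puma, a p53 target, held 5.63, 5.71 and 5.89 in control and 6.09, 5.64 and 5.55 in dKO arrays (0.02 ± 0.18 SE, 95% interval -0.41 to 0.45, adjusted p = 0.966). The groups overlapped fully.

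**Figure D3:**
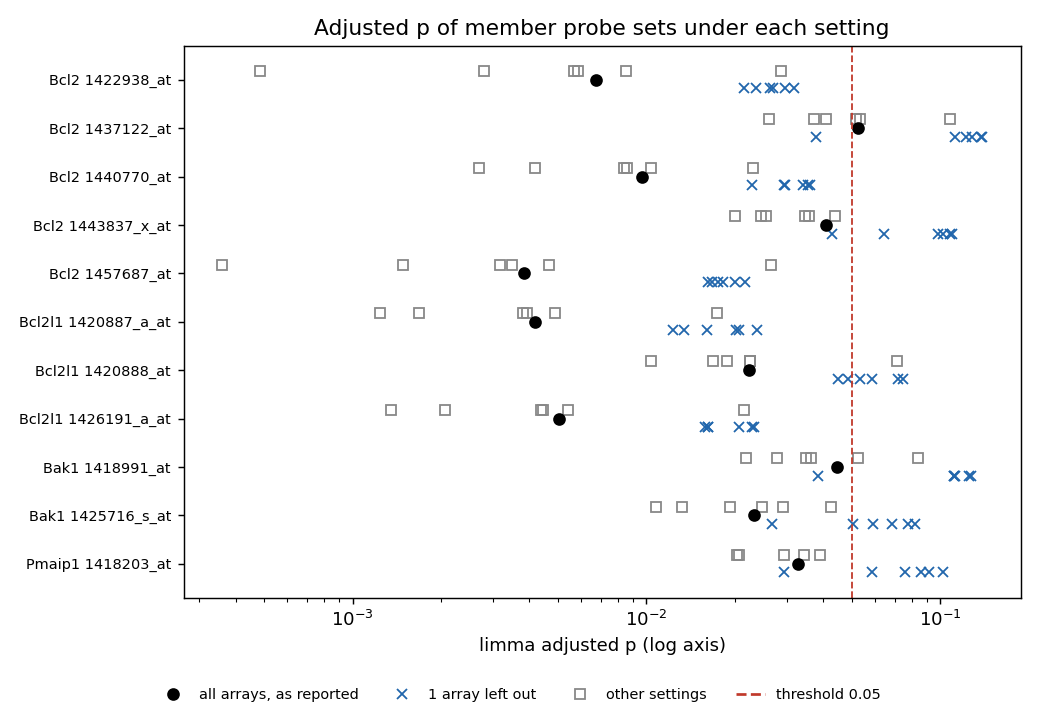
Limma adjusted p (log axis) of the 10 called member probe sets and of Bcl2 1437122_at with all arrays (black), with 1 array left out (blue crosses) and under 6 other settings where a value exists (grey squares); the dashed line is the threshold of 0.05. At all settings 3 Bcl2 and 2 Bcl2l1 probe sets stay left of the line, while those of Bak1 and Pmaip1 cross it.

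Of 11 measured family genes outside the members, 0 rose and 0 fell by their brightest probe sets (limma, at an unadjusted p under 0.05 there were 2 higher and 1 lower), with a median difference of 0.00. Over all genes 8.05% were called and 23.1% had an unadjusted p under 0.05, so these counts are not set apart from the background. Bcl2l14 had the smallest p, with 6.31 to 6.61 in control arrays, 8.33 and 7.55 in dKO replicates 2 and 3 and a lower value in dKO replicate 1 that was still above all controls (1.17 ± 0.32 SE, adjusted p = 0.0801), and it passed without dKO replicate 1 (0.0454). Bcl2l13 came next, with a difference of -0.61 ± 0.20 (SE, adjusted p = 0.131). The BH3-only genes Bad and Bmf differed by 0.30 (adjusted p = 0.221) and -0.06 (0.892), and Bok, an effector-like member, by 0.00 (0.998). Bcl2a1a, Bcl2a1b, Bcl2a1d and Bnip3l were not analysed here.

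Of 13 genes of the mitochondrial death machinery, 1 rose and 0 fell (unadjusted, 4 higher and 0 lower), with a median of 0.14, and the share called is near the 8.05% of all genes. Cycs, which encodes the cytochrome c that Bax and Bak1 pores release, went from 10.52, 10.68 and 10.07 in control to 11.68, 11.57 and 11.49 in dKO arrays, 2.23-fold (log2 1.16 ± 0.18 SE, limma adjusted p = 0.0150). A further 2 Cycs probe sets rose by 1.07 each, and the fourth was dim (0.65, adjusted p = 0.431). The Cycs call was lost without dKO replicate 1 (adjusted p = 0.0583) or dKO replicate 2 (0.0528). Diablo, which blocks the caspase inhibitors, differed by 0.54 ± 0.16 (SE, adjusted p = 0.0993). Apaf1, the platform that cytochrome c assembles, differed by 0.79 on its brightest probe set (adjusted p = 0.111), and its other probe set, chosen after its value was seen, rose by 0.78 (limma adjusted p = 0.0470).

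Of 18 genes that control the members' transcription or the stability or activity of their proteins, 1 rose and 1 fell (median 0.03), against 8.05% of all genes called. At an unadjusted p under 0.05, 2 were higher and 4 lower, against 23.1% of all genes in either direction. Among the latter, Foxo1 differed by -1.16 ± 0.28 (SE, adjusted p = 0.0522) and Stat5a by -0.65 ± 0.16 (SE, adjusted p = 0.0632). The other Foxo1 probe sets differed by -0.10, -0.48 and -0.15 and the other Stat5a probe set by -0.26, with limma adjusted p of 0.24 or more. Pim1, a kinase that inactivates the BH3-only protein Bad, was higher at 11.54, 11.39 and 11.48 in dKO arrays against 10.49, 10.63 and 10.56 in control arrays, 1.88-fold (log2 0.91 ± 0.13 SE, limma adjusted p = 0.00966). Foxo3, a transcription factor known to induce Bcl2l11 and Bbc3, fell from 11.10, 11.18 and 11.09 to 10.44, 10.49 and 10.33 (-0.71 ± 0.13 SE, limma adjusted p = 0.0211), and its 2 other probe sets fell by 0.79 and 0.80. Without control replicate 1, 2 or 3 its adjusted p was 0.0591, 0.0705 or 0.0556, and without dKO replicate 1, 2 or 3 it was 0.0659, 0.0571 or 0.0721. The ubiquitin ligase Huwe1 and the deubiquitinase Usp9x, which set the lifetime of the Mcl1 protein, differed by -0.35 (adjusted p = 0.201) and -0.17 (0.621).

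**Figure D4:**
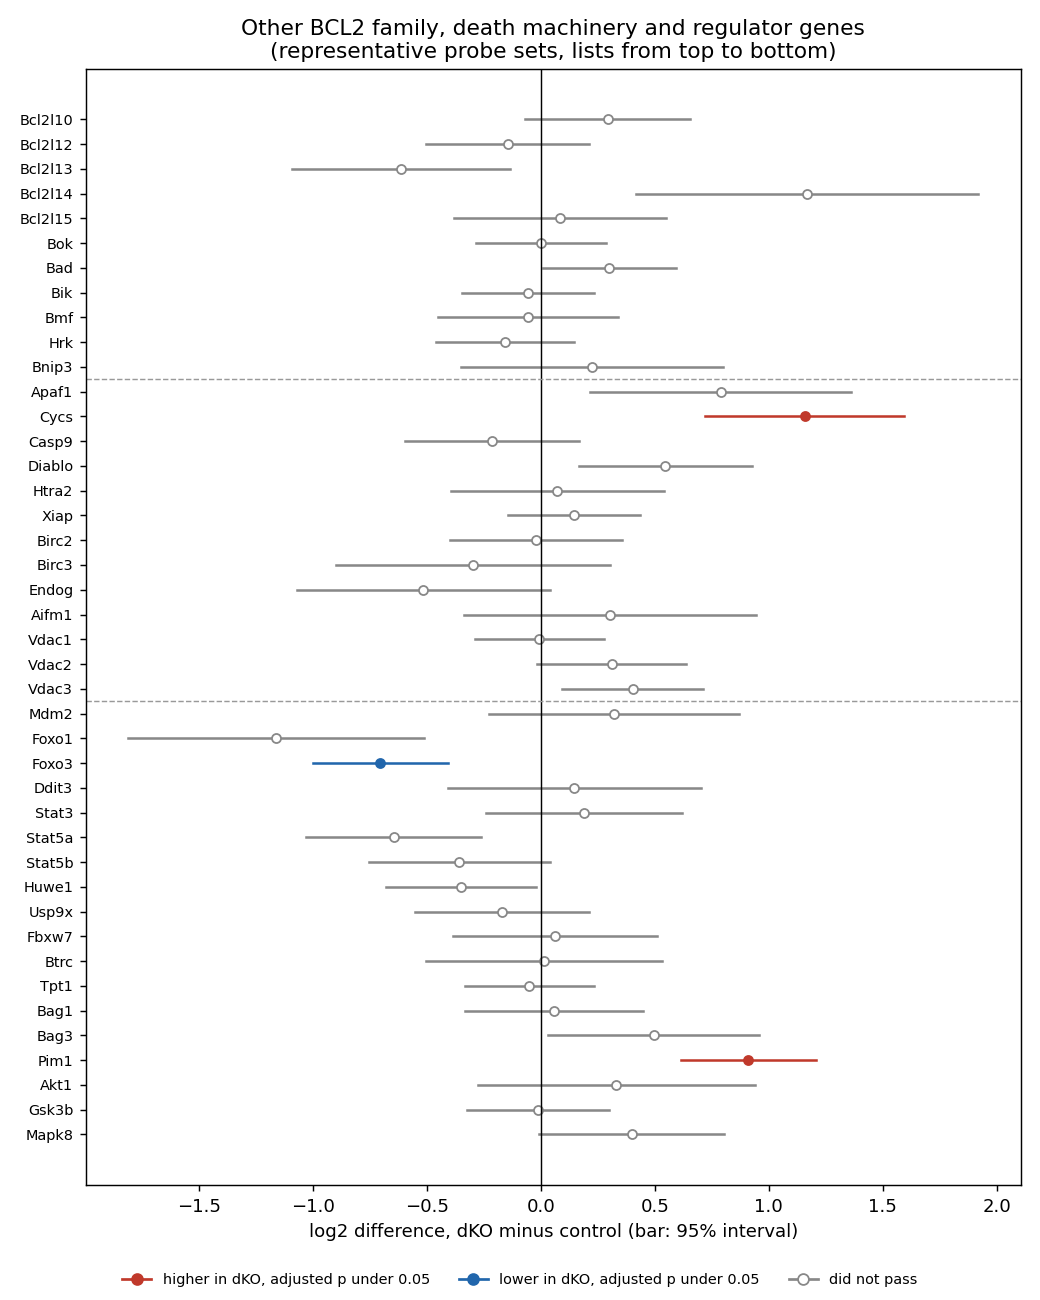
Log2 difference, dKO minus control (horizontal axis), with 95% interval from limma for the brightest probe set of each gene in 3 lists parted by dashed lines: other BCL2 family genes, mitochondrial death machinery and regulators. Cycs at 1.16 and Pim1 at 0.91 (red) rose, Foxo3 at -0.71 (blue) fell, and the open points did not pass.

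Across the 6 arrays, the genes nearest to each of the 3 members with the smallest p were found by the root mean square difference of log2 values centred on their mean, over the brightest probe sets of 18192 other genes. Nearest to Bcl2 were Fndc3a (0.08), Parp3 (0.08) and Pkp3 (0.09). Nearest to Bcl2l1 were the cytokine gene Osm (0.12), the G1 cyclin Ccnd1 (0.12) and the integrin chain Itgb2 (0.15). Nearest to Pmaip1 were Cxcl9 (0.20), an interferon-gamma-induced chemokine, Padi2 (0.28) and the NK receptor Klrk1 (0.29). These distances are descriptions over 6 arrays that share the group difference. Of 10 T and NK cell markers, Klrk1 rose (2.08 ± 0.42 SE) and Cd247 fell (-0.77 ± 0.13 SE), 8 did not pass, Ncr1 was at background, and the median difference was 0.29. Their summed signal, of which Cd247 is by far the largest part, lay between 10.90 and 11.01 (log2) on control arrays and between 10.39 and 10.56 on dKO arrays, so the sum follows Cd247 and not the other markers.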

How the data were processed

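The authors deposited log2 values after RMA, named in the submitters' processing notes without a version. Its settings are not stated by those notes, and the scale was inferred from the range of the values. RNA was amplified over 2 rounds, per the labels' protocols, which can compress differences. The fit was limma 3.58.1 in R 4.3.3 (lmFit and eBayes, two-sided, 4 residual and 3.19 prior degrees of freedom, no block). It was made over 45037 non-control probe sets and checked on simulated data. In that check 200 probe sets were changed and the spreads were shuffled among probe sets. It recovered 22% of differences of 1 log2 unit and 73% of differences of 2 log2 units, with 3 false calls. The data gave 3146 calls, so the adjusted cut was stricter in the check, and these shares need not hold for the data. A probe set that did not pass is not shown to be unchanged. Probe sets were named through GEO's platform annotation: 34945 had 1 symbol, 932 several and 9160 none; 34741 matched the RefSeq gene table (GRCm38.p6) and 0 symbols changed. A gene is represented by the probe set brightest on average. Genes named are the members, the passing genes of each list or its 2 with the smallest p, and the nearest genes by pattern; Apaf1, Bad, Bmf, Bok, Foxo1, Stat5a, Huwe1, Usp9x and the marker genes were added as examples after their values were seen. Members and lists were chosen with earlier results of these data known. The number of arrays limits the precision, and no batch is named in the labels. Alternatives were median centring, quantile normalization, a level filter, a trended robust prior, array weights, the replicate block, each array left out, and gene means over probe sets.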

Additional observations from a re-analysis of the deposited data

How the results depend on the processing

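For the 10 called member probe sets no alternative changed the direction. After median centring, with array weights, with the trended robust prior and with only probe sets above the median level, 11, 11, 10 and 10 member probe sets were higher, and after quantile normalization 9. Over the whole array the probe sets higher in these settings numbered 1905, 1637, 2101, 2051 and, after quantile normalization, 1528. The level filter tested only 22518 probe sets, 22 of them of members. Median centring moved the median of all probe sets from -0.01 to 0.05. Both groups carry numbers 1 to 3. Over all probe sets, same-numbered deviations correlated at -0.02, 0.00 and 0.01, so no pairing of the arrays was seen. Whether same-numbered pools were handled together cannot be told from these values. With the replicate block 8 member probe sets were higher, Bak1 1418991_at and Bcl2l1 1420888_at losing their call (adjusted p = 0.0842 and 0.0714); over the whole array 1530 were called. With 1 array left out, 5 to 7 member probe sets and 2 to 3 member genes were higher, 0 to 1 other family genes, 0 to 1 death machinery genes, and 0 to 1 regulators were lower. Over the whole array 1338 to 1674 probe sets were called in these fits. With the level filter 1 other family gene was higher. With the trended robust prior or gene means 2 death machinery genes were higher. Regulators lower numbered 3 after quantile normalization, the level filter or the trended prior, 2 with array weights and 0 with the replicate block. The cause was not tested.

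Signs turned only where differences were near 0 and never called. After quantile normalization Mcl1 1416880_at became -0.0243, Mcl1 1448503_at -0.0538 and Bcl2l2 1430453_a_at 0.0506. After median centring Bcl2l2 1423572_at became 0.0249 and 1430453_a_at 0.0503. Leaving out 1 array gave differences of -0.0352 to 0.140 for Mcl1 1416880_at, -0.0546 to 0.107 for Mcl1 1448503_at, -0.15 to 0.12 for Bbc3 1423315_at, -0.20 to 0.21 for Bcl2l2 1430453_a_at, -0.0595 to 0.220 for Bcl2l11 1435449_at, -0.0349 to 0.115 for Bid 1447873_x_at and -0.0230 to 0.0670 for Bid 1448560_at. Probe sets at background, among them Bid 1447873_x_at, limit what dim members can show. Pmaip1 has no value under the level filter.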
